A study of Mus musculus with 12 samples.

Results

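Nitro-oleic acid (OA-NO2) was compared with oleic acid (OA), the fatty acid it is made from, in the livers of mice on a diet used to model nonalcoholic steatohepatitis (NASH, a fatty liver that is inflamed and scarring). The comparison took the 3 libraries whose label names a minipump with OA-NO2 and the 3 whose label names one with OA, which are 6 of the 12 libraries of the series, and it was made over all genes. The labels call the mice C57BL/6J in the protocol and C57BL/6 in the strain field. All 6 mice ate the NASH diet (40% of calories from fat, with trans fat, fructose and cholesterol) for 24 weeks and carried a subcutaneous osmotic minipump, a device that releases its contents steadily, which gave either fatty acid dissolved in polyethylene glycol at 5 mg/kg/day. The added nitro group is thus the labelled difference in the infused molecule, and this is the 1 pair of compounds compared at a matched dose. The other 6 libraries came from mice on the same diet with polyethylene glycol alone in the pump (vehicle) and from mice on standard chow, for which no pump is mentioned. The sources used here do not give sex, age or the length of the infusion. Ear tags tell the animals apart, so each library is 1 mouse.

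Oleic acid is a common monounsaturated fatty acid and is not electrophilic. Its nitrated form is an electrophile that adds to cysteine thiols. Such nitroalkenes are known to modify KEAP1, the sensor that holds back the antioxidant transcription factor NRF2, to set off heat shock genes, to inhibit NF-kB signalling and to bind PPAR-gamma, a nuclear receptor of fat storage. Prostaglandin reductase 1 (Ptgr1) is known to reduce the double bond of nitroalkenes and so ends their reactivity. In liver, Kupffer cells are the resident macrophages of the sinusoids. On steatohepatitis diets they are partly replaced by macrophages that come from blood monocytes, and stellate cells lay down collagen.

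In edgeR's quasi-likelihood test with Benjamini-Hochberg adjustment, 1 of 14469 genes tested (0.00691%) was called at an adjusted p under 0.05. It was Cd163, higher with OA-NO2, and 0 genes were called lower. At an unadjusted p under 0.05 there were 1740 genes (12.0%), 762 of them higher (5.27%) and 978 lower (6.76%) with OA-NO2. The CPM values (reads per gene scaled to a common library total) of the 2 groups did not overlap in 2076 genes (14.3%), with OA-NO2 above in 1010 (6.98%) and below in 1066 (7.37%). Over all genes tested the log2 fold change had a median of -0.00219. With DESeq2 in place of edgeR 51 genes were called, 27 higher and 24 lower, and without the third OA library edgeR called 130, 44 higher and 86 lower.

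The third OA library, OA replicate 3, stood apart from the other libraries of its group and lay with the OA-NO2 libraries. On the first principal component of all 12 libraries (46.4% of the variance) OA replicates 1, 2 and 3 were at 49.62, 39.99 and -13.48, and the OA-NO2 libraries at 10.28, -26.77 and -12.16. The OA-NO2 group was uneven too. On the second component of the 6 infused libraries (18.8% of the variance) OA-NO2 replicate 1 was at -48.15 and the others at 5.69 to 16.86. Total counts were 16847880 to 17379756 with OA and 17449884 to 19786604 with OA-NO2, so depth was slightly higher in each OA-NO2 library (exact permutation p = 0.1, the smallest that 3 against 3 allows). Albumin (Alb), the main secreted protein of hepatocytes, made up 5.01% to 7.07% of counts in the OA group and 5.98% to 8.03% in the OA-NO2 group. Mitochondrially encoded transcripts took 8.01% ± 1.87 of counts with OA-NO2 and 8.36% ± 0.25 with OA (SD, n = 3 each, two-sided exact permutation p = 0.9). Where a named gene was called without OA replicate 3, this is given beside its value from all 6 libraries. The samples are bulk liver, so fewer cells of a type and less RNA per cell cannot be told apart.

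Cd163, the haemoglobin and haptoglobin scavenger receptor of resident macrophages (ENSMUSG00000008845, GRCm38 chromosome 6, 124304656 to 124330527), was the single called gene, and Marco, a scavenger receptor for bacteria and particles on some of the same cells (ENSMUSG00000026390, chromosome 1, 120474538 to 120505024), had a fold change of the same size. Their promoters are shown because these 2 macrophage genes gave the largest fold changes among the named genes. Each stretch runs from 250 bases before to 50 bases after the start of transcription, 5′ to 3′ on the gene's strand, from RefSeq on GRCm38.p6 (Cd163 chr6:124304401-124304700, plus strand; Marco chr1:120504975-120505274, minus strand). Capitals mark matches, on either strand, to the antioxidant response element core TGACNNNGC, the AP-1 site TGANTCA or the PU.1-type ETS motif GAGGAA. The first 2 of these motifs can overlap each other.
Cd163: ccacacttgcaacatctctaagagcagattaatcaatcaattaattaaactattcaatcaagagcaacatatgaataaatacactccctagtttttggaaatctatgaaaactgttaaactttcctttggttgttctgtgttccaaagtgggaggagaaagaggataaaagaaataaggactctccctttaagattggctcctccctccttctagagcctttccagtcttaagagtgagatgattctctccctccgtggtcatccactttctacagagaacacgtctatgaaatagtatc
Marco: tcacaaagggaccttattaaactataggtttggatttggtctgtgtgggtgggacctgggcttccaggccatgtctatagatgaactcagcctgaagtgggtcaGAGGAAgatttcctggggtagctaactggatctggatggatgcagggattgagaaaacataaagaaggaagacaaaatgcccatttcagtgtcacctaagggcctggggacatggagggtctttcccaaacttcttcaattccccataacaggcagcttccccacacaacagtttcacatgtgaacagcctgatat
The Cd163 stretch held 0 matches to the 3 motifs. The Marco stretch held 1 match, to the ETS motif, at 146 to 141 bases before the start. Of 32817 mouse promoter stretches of this length, 12.4% held the antioxidant core, 7.81% the AP-1 site and 28.3% the ETS motif, and a match is a match of letters only.

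Cd163 stood at 2.14, 0.769 and 1.14 CPM in the OA libraries and at 15.7, 22.8 and 16.9 CPM in the OA-NO2 libraries. Every OA-NO2 library was far above every OA library, OA replicate 3 included. Cd163 rose 13.5-fold, a log2 fold change of 3.76 ± 0.35 (SE; 95% interval 3.0 to 4.52; edgeR adjusted p = 0.00085, between 2.52e-24 and 0.015 over 15 alternative settings, all of which called it). Without OA replicate 3 its log2 fold change was 3.67. In the same fit Cd163 stood at 0.979, 0.639 and 0.296 CPM with vehicle and at 15.9, 18.9 and 15.3 CPM in chow, so the OA-NO2 libraries overlapped the chow range and the OA libraries that of vehicle. In the libraries as deposited this rests on 42, 15 and 19 reads with OA and 305, 440 and 279 with OA-NO2.

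Marco stood at 4.43, 0.615 and 0.843 CPM with OA and at 12.0, 56.2 and 17.9 CPM with OA-NO2. The groups did not overlap, but OA-NO2 replicate 2 was several times above the others. The log2 fold change of Marco was 3.85 ± 0.77 (SE; 95% interval 2.19 to 5.51; edgeR adjusted p = 0.313), which did not pass, whereas DESeq2 (adjusted p = 0.0172) and edgeR without a filter on low counts (0.0233) called it. Leaving out 1 library moved it between 2.90 (without OA-NO2 replicate 2) and 5.30 (without OA replicate 1). Timd4, a receptor for dying cells on long-lived Kupffer cells, stood at 3.42, 1.18 and 0.662 CPM with OA against 4.07, 12.0 and 5.68 CPM with OA-NO2. Its highest OA library lay just under its lowest OA-NO2 library, and its log2 fold change of 2.03 ± 0.52 did not pass in edgeR (adjusted p = 0.313) but did in DESeq2 (0.0272).

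Cd163, Marco and Timd4 were the exceptions in their list. Of 15 Kupffer cell genes, all tested, 1 was called higher and 0 lower. At an unadjusted p under 0.05, 3 were higher and 6 lower, and the median log2 fold change was -0.53, or -0.69 without OA replicate 3. Adgre1, the macrophage surface marker F4/80, stood at 44.8, 47.4 and 34.9 CPM with OA and 22.8, 24.9 and 24.6 CPM with OA-NO2, with no overlap (log2 fold change -0.82 ± 0.27, unadjusted p = 0.00939). C1qb, a complement subunit made by macrophages, stood at 143, 153 and 88.9 CPM with OA and 75.2, 84.7 and 77.7 CPM with OA-NO2 (-0.70 ± 0.24). Cd5l, a secreted macrophage survival factor, stood at 360, 381 and 245 against 170, 236 and 200 CPM (-0.70 ± 0.26). In Adgre1, C1qb and Cd5l OA replicate 3 was the lowest OA library and still above each OA-NO2 library. Clec4f, a lectin of mouse Kupffer cells, had a log2 fold change of -0.11 ± 0.21 (95% interval -0.57 to 0.35). Vsig4, a complement receptor, was at 0.06 ± 0.46 on the same scale, and its sign turned to -0.39 without OA replicate 3 and to -0.13 with library size alone. Summed over the list, Kupffer genes took 1277, 1353 and 954 CPM with OA and 842, 1052 and 874 CPM with OA-NO2. The groups' sums overlapped, and their part in the Cd163 result was not tested.

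**Figure D1:**
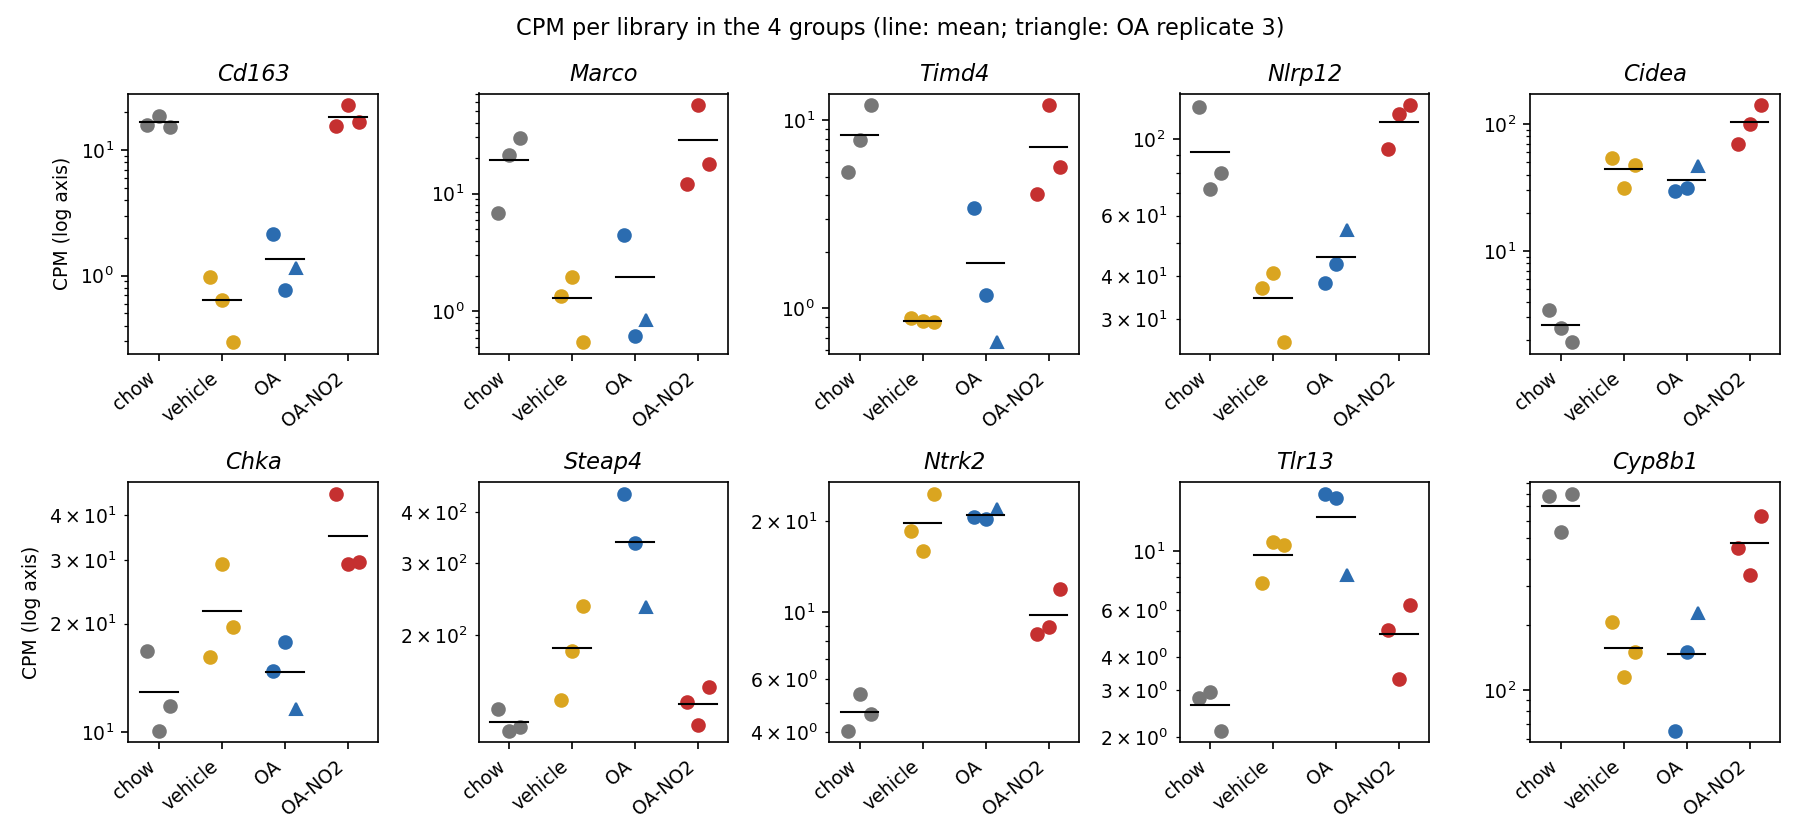
CPM per library (log axis) of 10 genes in the 4 groups, 1 point per mouse, with the group mean as a line and OA replicate 3 as a triangle. Cd163 is at 15.7 to 22.8 CPM with OA-NO2 and at 0.769 to 2.14 CPM with OA, and in the other 9 panels, none of which passed the test, the OA and OA-NO2 points also lie apart. The genes shown were taken for a low p or chosen after their values were seen, so the gaps follow from that choice. Over all genes tested the 2 groups did not overlap in 14.3%.

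Genes of macrophages that come from monocytes, and of the lipid-laden state they take in fatty liver, stood lower with OA-NO2, although none passed the test. All 18 tested had a log2 fold change below 0, 14 of them at an unadjusted p under 0.05, where 6.76% of all genes did so downward. Their median was -1.24, and -1.59 without OA replicate 3. The 2 groups did not overlap in only 2 of the 18, where 7.37% of all genes were lower without overlap. Summed over the list, these genes took 2359, 2054 and 1356 CPM with OA and 1415, 1311 and 1295 CPM with OA-NO2. The sums overlapped, and OA replicates 1 and 2 were the high libraries. Trem2, the lipid receptor of these cells, stood at 21.3, 18.6 and 5.12 CPM with OA and 7.88, 2.02 and 4.59 CPM with OA-NO2. Gpnmb, a glycoprotein of lipid-laden macrophages, stood at 98.3, 58.2 and 11.7 CPM with OA and 27.9, 1.66 and 8.34 CPM with OA-NO2. For Trem2 and Gpnmb OA replicates 1 and 2 were the highest libraries, and OA replicate 3 was inside the OA-NO2 range. The log2 fold changes were -1.64 ± 0.49 for Trem2 (95% interval -2.70 to -0.57, edgeR adjusted p = 0.313) and -2.15 ± 0.78 for Gpnmb (-3.83 to -0.46, adjusted p = 0.348). Without OA replicate 3, 5 of the list were called lower in edgeR, where 0.579% of all genes were called lower. In the 5 that library lay toward OA-NO2, so leaving it out widens their gap, and the count is no separate support. Among the 5 were Trem2 (-2.04, adjusted p = 0.0361), the tetraspan-like gene Ms4a7 (-2.03, adjusted p = 0.0143), the actin-capping gene Capg (-1.37, adjusted p = 0.0337) and the monocyte chemokine receptor Cx3cr1 (-1.75, adjusted p = 0.0431).

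Chemokines, cytokines and their receptors also had point values below 0. Of 24 listed genes 20 were tested, all 20 had values below 0 and 11 had an unadjusted p under 0.05, with a median log2 fold change of -0.85. Cxcl16, a membrane-bound chemokine and scavenger receptor, was at a log2 fold change of -0.82 ± 0.21 and was called without OA replicate 3 (-1.03, edgeR adjusted p = 0.0283), and Ccl5, a chemokine of T cells, at -1.37 ± 0.37. Ccl2, the main monocyte attractant, stood at 5.81, 3.79 and 1.08 CPM with OA and 3.14, 0.466 and 1.45 CPM with OA-NO2, which overlapped (-1.08 ± 0.61, 95% interval -2.38 to 0.22). Il1b, interleukin-1 beta, was at -0.71 ± 0.32 (95% interval -1.40 to -0.03) without overlap, from 3.97 to 4.77 CPM with OA and from 2.12 to 3.35 CPM with OA-NO2. Tnf was too low to be tested.

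Other genes of innate immune cells were among those with the lowest p. Tlr13, a receptor for bacterial ribosomal RNA, stood at 16.5, 15.9 and 8.13 CPM with OA and 5.04, 3.31 and 6.28 CPM with OA-NO2 (log2 fold change -1.47 ± 0.29, edgeR adjusted p = 0.313, and 0.0143 without OA replicate 3; DESeq2 0.00376). Cd207, langerin, a lectin of some dendritic cells and macrophages, stood at 23.1, 19.2 and 16.3 CPM with OA and 9.32, 7.04 and 7.67 CPM with OA-NO2 (-1.29 ± 0.26, edgeR adjusted p = 0.313, and 0.0382 without OA replicate 3; DESeq2 0.00322). Neither gene's groups overlapped, and both were also called without a filter on low counts. Nlrp12, a NOD-like receptor known to dampen NF-kB signalling, went the other way, from 38.2, 43.5 and 54.6 CPM with OA to 93.6, 118 and 126 CPM with OA-NO2 (1.31 ± 0.23, 95% interval 0.81 to 1.81, adjusted p = 0.243). Nlrp12 did not overlap between groups, and it was called without OA replicate 3 (adjusted p = 0.0283), by DESeq2 (0.000519) and without a filter on low counts. In chow it stood at 71.6 to 124 CPM and with vehicle at 25.8 to 40.8 CPM. Of the 11 inflammasome genes, all tested, 9 had values below 0, and the median was -0.41.

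Genes of antigen presentation, neutrophils and lymphocytes had medians below 0, with 0 called. In the antigen presentation list 8 of 13 genes had values below 0 and 5 above, 6 of the former at an unadjusted p under 0.05 (median -0.71, or -0.39 without OA replicate 2). Its summed levels overlapped between groups, at 4702, 5740 and 5082 CPM with OA and 3932, 6135 and 5712 CPM with OA-NO2. Among the 6 were the class II chains H2-Aa (-1.13 ± 0.33) and H2-Eb1 (-1.06 ± 0.30). H2-Aa stood at 227.1, 262 and 114 CPM with OA and 87.8, 108 and 78.7 CPM with OA-NO2, without overlap, and was called without OA replicate 3 (-1.41, edgeR adjusted p = 0.0475). Of 11 neutrophil genes 6 were tested (median -1.58). Lcn2, lipocalin 2, which injured hepatocytes also make, stood at 608, 434 and 71.0 CPM with OA and at 119, 64.1 and 76.5 CPM with OA-NO2 (-2.10 ± 0.58). Vehicle stood at 83.45, 204.3 and 153.8 CPM, which overlapped OA-NO2, and OA replicates 1 and 2 were above every vehicle library. OA replicate 3 lay inside the OA-NO2 range for Lcn2, and without it the gene was called lower (-2.58, adjusted p = 0.0143). Of 18 lymphocyte genes 17 were tested, 16 had values below 0 (median -0.76) and 2 an unadjusted p under 0.05, and their summed level was 19.4 to 23.4 CPM with OA and 10.1 to 19.1 CPM with OA-NO2.

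In matrix and fibrosis genes the point values were below 0 for 33 of 35 (median log2 fold change -0.66, 8 at an unadjusted p under 0.05, 0 called). The OA and OA-NO2 values overlapped in all 35, however, where 7.37% of all genes were lower without overlap. That median was -0.25 without OA replicate 1, -0.40 without OA-NO2 replicate 2 and -1.11 without OA-NO2 replicate 1. Col1a1, the main collagen of scar, stood at 57.95, 37.7 and 8.43 CPM with OA and at 35.4, 5.65 and 10.4 CPM with OA-NO2. OA replicate 3 was the second lowest of the 6 libraries and OA-NO2 replicate 1 the third highest. The difference for Col1a1 was -1.02 ± 0.65 on the log2 scale (95% interval -2.42 to 0.39, edgeR adjusted p = 0.535), and -1.47 without OA replicate 3. Timp1, an inhibitor of matrix proteases, was at -1.41 ± 0.69 (95% interval -2.89 to 0.08), Thbs2, a matrix glycoprotein, at -1.19 ± 0.37, and Vim, the intermediate filament of mesenchymal cells, at -0.66 ± 0.23. Acta2, the actin of activated stellate cells and smooth muscle, was at -0.68 ± 0.63 (95% interval -2.04 to 0.67). The 13 tested stellate cell genes had a median of -0.43, which was -0.17 without OA replicate 1, -0.27 without OA-NO2 replicate 3 and -0.13 without OA-NO2 replicate 2. Lrat, which esterifies retinol for storage in stellate cells, was at -0.61 ± 0.23, and Ecm1, a secreted matrix protein also made by hepatocytes, was the 1 member above 0 at an unadjusted p under 0.05 (0.53 ± 0.13). DESeq2 called Ecm1 higher (adjusted p = 0.0294).

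Genes of bile duct cells and of dividing cells followed the same direction in their medians. Of 12 cholangiocyte genes 10 were tested (median -1.06, or -0.16 without OA replicate 1). Spp1, osteopontin, made by bile duct cells and macrophages, stood at 373, 206 and 31.0 CPM with OA and 84.8, 41.5 and 70.0 CPM with OA-NO2, so that OA replicate 3 was the lowest of the 6 libraries. Of 19 proliferation genes tested 8 were below 0 at an unadjusted p under 0.05 and 18 had values below 0 (median -0.68, or -0.41 without OA replicate 1). Mki67, a marker of cycling cells, stood at 7.29, 6.51 and 4.52 CPM with OA and 3.76, 2.59 and 2.42 CPM with OA-NO2, without overlap (-1.06 ± 0.28). The 16 liver endothelial genes were near 0 (median -0.16), with 0 at an unadjusted p under 0.05.

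Among the genes that electrophiles are known to induce, none passed the test. Of 27 NRF2 antioxidant genes, all tested, 0 were called, 1 was higher and 1 lower at an unadjusted p under 0.05 (7.41%, against 12.0% of all genes), and the median log2 fold change was -0.02. The sign of that median turned without OA-NO2 replicate 2. Nqo1, a quinone reductase, stood at 20.1, 17.8 and 12.2 CPM with OA and 11.8, 13.3 and 18.5 CPM with OA-NO2. The groups overlapped throughout, and the log2 difference of -0.20 ± 0.23 had a 95% interval of -0.70 to 0.29. Hmox1, haem oxygenase 1, was at -0.29 ± 0.28 (95% interval -0.89 to 0.30). The glutathione synthesis subunits Gclc and Gclm were at 0.12 ± 0.21 (-0.33 to 0.57) and -0.18 ± 0.15 (-0.50 to 0.15). Sulfiredoxin (Srxn1) was at 0.05 ± 0.19 (-0.36 to 0.46) and thioredoxin reductase (Txnrd1) at -0.14 ± 0.16 (-0.49 to 0.22). For Nqo1, Hmox1, Gclc, Gclm, Srxn1 and Txnrd1 the intervals leave out a doubling in either direction; a smaller difference is not excluded.

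Among the NRF2 regulators, Nfe2l2, which encodes NRF2, was at -0.33 ± 0.17 (95% interval -0.69 to 0.03). Keap1 stood at 28.9, 31.1 and 31.7 CPM with OA and 38.0, 41.2 and 33.0 CPM with OA-NO2, a small difference without overlap (0.29 ± 0.14, unadjusted p = 0.0498, edgeR adjusted p = 0.415). Of the 13 tested genes that handle nitroalkenes and eicosanoids, 0 were called and 1 was lower at an unadjusted p under 0.05, Hpgds, a prostaglandin D synthase (-1.27 ± 0.37), which was called without OA replicate 3 (-1.57, edgeR adjusted p = 0.0384). Ptgr1 stood at 4.64, 2.56 and 1.505 CPM with OA and 2.06, 1.61 and 2.29 CPM with OA-NO2 (-0.56 ± 0.45, 95% interval -1.51 to 0.40). Ephx2, soluble epoxide hydrolase, an enzyme that nitro-fatty acids are known to inhibit, was at 0.47 ± 0.23 (95% interval -0.03 to 0.97).

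Heat shock genes stood slightly higher. Of 16 listed 15 were tested, 0 were called and 13 had values above 0. At an unadjusted p under 0.05, 4 were above 0, where 5.27% of all genes were. The median was 0.34 (0.25 to 0.40 over 15 alternative settings). Summed, the list took 3247, 2887 and 3654 CPM with OA and 3822, 4000 and 4129 CPM with OA-NO2. The OA-NO2 sums lay between the 3432, 3205 and 2761 CPM of vehicle and the 4823, 4567 and 4422 CPM of chow. Whether the rise is apart from the general shift of diet genes was not tested. Bag3, a co-chaperone, stood at 21.4, 19.5 and 16.9 CPM with OA and 37.6, 27.1 and 27.4 CPM with OA-NO2. All 3 OA-NO2 libraries of Bag3 were above all 3 OA libraries (0.67 ± 0.17, 95% interval 0.31 to 1.03, edgeR adjusted p = 0.313). Hsp90ab1, a cytosolic HSP90, was at 0.41 ± 0.16, Hsph1, a nucleotide exchange factor, at 0.54 ± 0.24, and Dnajb1, an HSP40, at 0.37 ± 0.17 (-0.00 to 0.74). Hspa1b, an inducible HSP70 with a near-identical neighbour that makes its count uncertain, was at 0.58 ± 0.32 (-0.11 to 1.26), and its neighbour Hspa1a did not pass the filter on low counts.

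NF-kB subunits and feedback targets had a median of -0.23 (-0.57 to -0.08 on leaving out 1 library, the ends being without OA-NO2 replicates 1 and 2), with 0 of 18 called and 3 lower at an unadjusted p under 0.05. Birc3, an inhibitor of apoptosis that NF-kB induces, stood at 16.9, 14.7 and 14.3 CPM with OA and 10.2, 9.997 and 10.8 CPM with OA-NO2, so that the groups were tight and apart (-0.57 ± 0.16). Tnfaip3, the feedback inhibitor A20, was at -0.69 ± 0.27, while Nfkbia, the inhibitor I-kappa-B-alpha, was at 0.32 ± 0.25 (95% interval -0.23 to 0.86). Of 26 interferon-response genes 9 were lower and 0 higher at an unadjusted p under 0.05 (median -0.36, or -0.22 without OA replicate 3). Ifit2, an interferon-induced RNA-binding protein, was at -0.91 ± 0.24 and Gbp2, a guanylate-binding protein, at -0.83 ± 0.23, and neither overlapped between the groups.

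**Figure D2:**
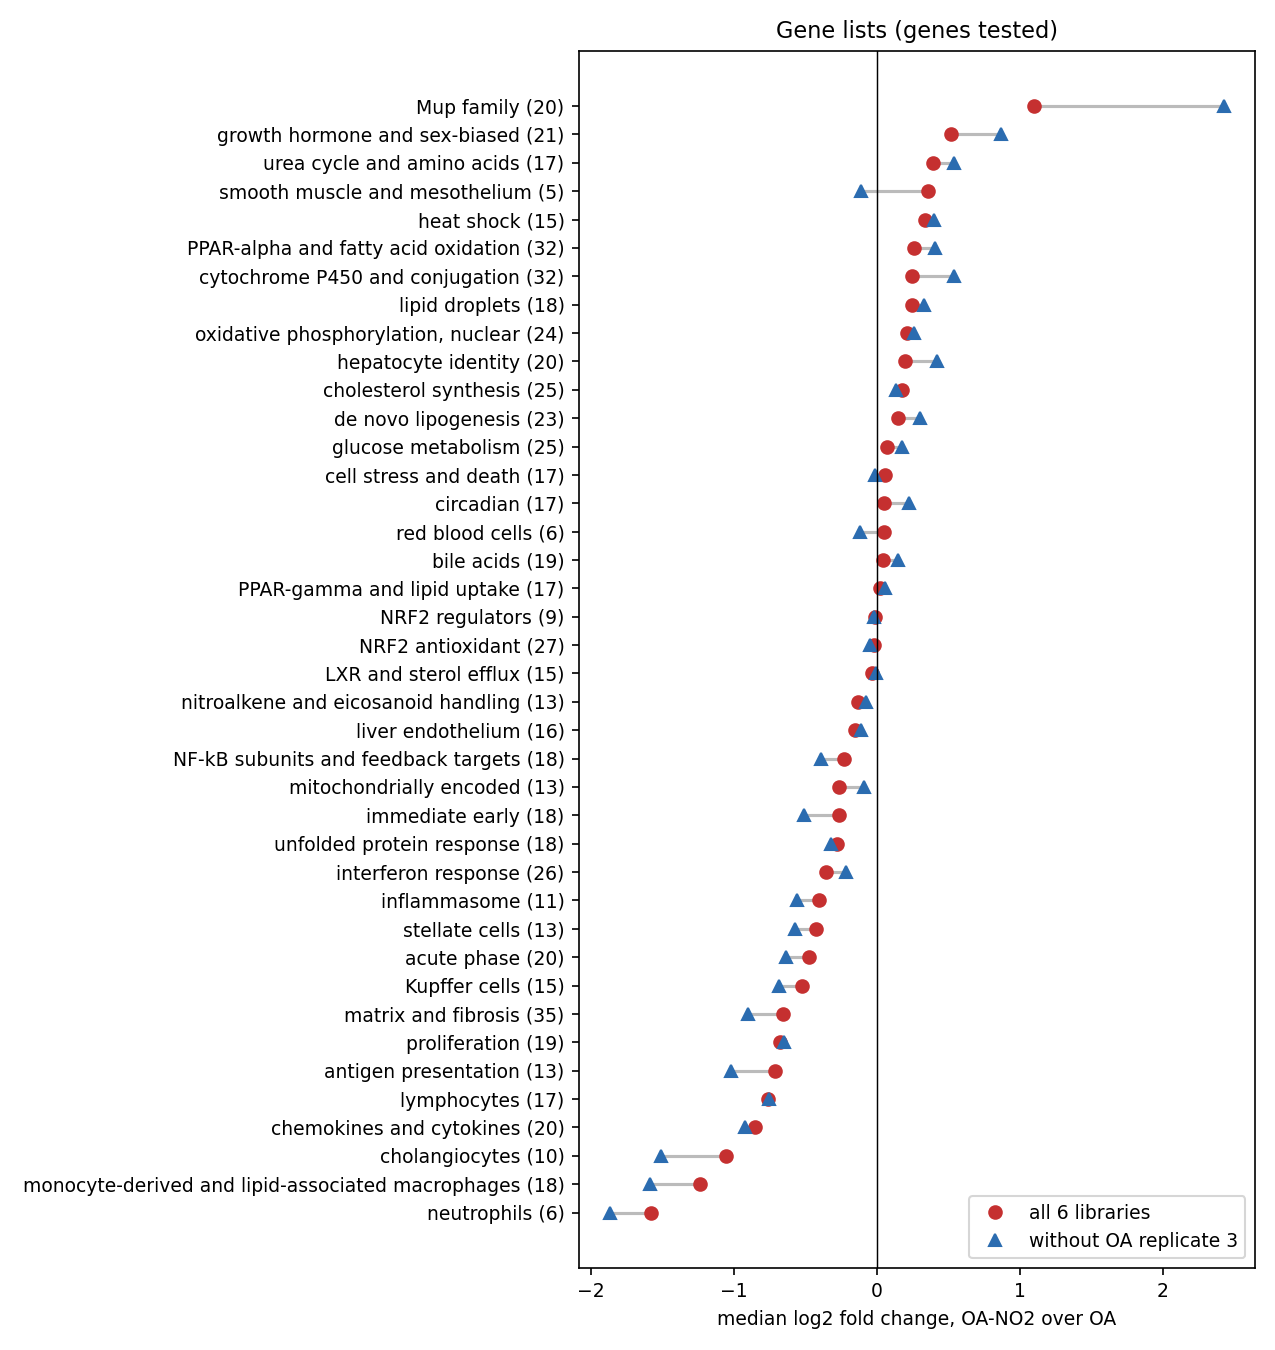
Median log2 fold change of OA-NO2 over OA in the gene lists and the Mup family, with the number of genes tested in brackets, from all 6 libraries (circles) and without OA replicate 3 (triangles). The lists of adipose carryover (3 genes tested) and pancreas carryover (1 gene tested) are not drawn. Medians run from -1.58 for neutrophil genes to 1.10 for the Mup family, with the NRF2 lists at about 0, and 1 gene in these lists, Cd163, passed the test with all 6 libraries.

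Lipid droplet genes stood higher. Of 18 tested 5 were above 0 at an unadjusted p under 0.05 and 0 below (median 0.24, 0 called). Cidea, which drives the growth of lipid droplets and is also abundant in brown fat (ENSMUSG00000024526), stood at 29.6, 31.1 and 47.1 CPM with OA and at 69.7, 101 and 140 CPM with OA-NO2. The lowest OA-NO2 library was above the highest OA library, which was OA replicate 3. Its log2 fold change was 1.53 ± 0.28 (95% interval 0.93 to 2.12, edgeR adjusted p = 0.243), and it was called without OA replicate 3 (1.79, adjusted p = 0.0243), by DESeq2 (0.000519) and without a filter. Vehicle livers had 31.6 to 54.3 CPM of Cidea and chow livers 1.92 to 3.43 CPM, so the OA-NO2 values were the highest of the 4 groups. Of 7 genes listed as a sign of adipose carryover, Cfd, Adipor2 and Car3 passed the filter on low counts. The 7 summed to 1231, 1593 and 2920 CPM with OA and 1373, 2872 and 2451 CPM with OA-NO2. In chow livers the sum was 3254, 3399 and 1704 CPM. Cfd, the adipocyte protease adipsin, stood at 9.53, 18.5 and 81.2 CPM with OA and 60.8, 125.5 and 59.2 CPM with OA-NO2, which overlapped. Most of the sum thus came from the other genes. Cfd was at 1.17 with all 6 libraries (edgeR adjusted p = 0.465) and was called higher without OA replicate 3 (2.56, edgeR adjusted p = 0.0361). The part of adipose carryover in the Cidea values was not tested. Cidec, of the same family, was at -0.09 ± 0.21 (95% interval -0.55 to 0.37). Plin5, a droplet coat protein of oxidative tissue, was at 0.69 ± 0.19 and Mgll, monoglyceride lipase, at 0.61 ± 0.17.

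Genes of PPAR-gamma and of lipid uptake went both ways, 3 of 17 higher and 2 lower at an unadjusted p under 0.05 (median 0.02, -0.09 with library size alone and -0.03 without OA-NO2 replicate 3). Pparg itself stood at 32.7, 27.7 and 21.4 CPM with OA and 15.3, 23.4 and 27.7 CPM with OA-NO2, which overlapped (-0.30 ± 0.23, 95% interval -0.81 to 0.20). The fatty acid transporter Cd36 was at -0.13 ± 0.35 (-0.88 to 0.62). Fabp4, a fatty acid binding protein of fat cells and macrophages, was at -0.11 ± 0.55 (-1.29 to 1.07), too uneven for a direction. Slc27a1, a fatty acid transport protein, stood at 11.3, 12.0 and 20.8 CPM with OA and at 38.2, 27.6 and 33.3 CPM with OA-NO2 (1.17 ± 0.29), and it was called without OA replicate 3 and by DESeq2 (adjusted p = 0.0324 at the lowest). Angptl4, an inhibitor of lipoprotein lipase, was at 1.0 ± 0.33 and Vldlr, a lipoprotein receptor, at -1.0 ± 0.27.

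Targets of PPAR-alpha and enzymes of fatty acid oxidation were above 0 in 30 of 32 genes, 9 of them at an unadjusted p under 0.05 and 0 called (median 0.26, or 0.40 without OA replicate 3). Cyp4a14, a fatty acid omega-hydroxylase and a sensitive PPAR-alpha target, stood at 1223, 1001 and 3072 CPM with OA and at 4144, 4098 and 4156 CPM with OA-NO2. OA replicates 1 and 2 were the low libraries, and OA replicate 3 came near the OA-NO2 group (1.23 ± 0.48, 95% interval 0.20 to 2.26, edgeR adjusted p = 0.363). Cyp4a10, of the same family, whose close copies make single members uncertain, was at 1.05 ± 0.43 and was called without OA replicate 3 (1.82, adjusted p = 0.0361). Crat, carnitine acetyltransferase, was at 0.49 ± 0.15 without overlap. Cpt1a, the gate of mitochondrial fatty acid entry, was at 0.20 ± 0.18 (-0.18 to 0.59), and Fgf21, a hormone of the fasted liver, at 0.20 ± 0.46 (-0.79 to 1.198), a sign that turned without OA replicate 3 (-0.08) and without OA-NO2 replicate 1 (-0.59).

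Of 23 lipogenesis genes tested 6 were higher and 2 lower at an unadjusted p under 0.05 (median 0.15, or 0.30 without OA replicate 3, 0 called). Srebf1, the main lipogenic transcription factor, stood at 97.3, 102 and 93.3 CPM with OA and 53.1, 86.9 and 63.8 CPM with OA-NO2, apart by a small gap (-0.52 ± 0.27, 95% interval -1.11 to 0.06). Fasn, fatty acid synthase, was at -0.52 ± 0.48 (-1.55 to 0.51) and Scd1, the main stearoyl-CoA desaturase of liver, at 0.06 ± 0.21 (-0.40 to 0.51). Fads1, the delta-5 desaturase, was at 0.58 ± 0.15, and DESeq2 called it (adjusted p = 0.0386). Elovl3, an elongase, was at 1.58 ± 0.51, while Scd2, a desaturase low in healthy liver, was at -0.82 ± 0.25. Without OA replicate 3 Elovl3 was called higher and Scd2 lower. Chka, choline kinase alpha, the first enzyme of phosphatidylcholine synthesis from choline and outside the lists, stood at 14.8, 17.8 and 11.6 CPM with OA and 45.8, 29.3 and 29.7 CPM with OA-NO2. The groups were well apart, and DESeq2 called it, whereas edgeR did not (1.24 ± 0.26, edgeR adjusted p = 0.313, DESeq2 0.00864).

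Cholesterol synthesis had 1 of 25 genes above 0 at an unadjusted p under 0.05 (median 0.17, or 0.04 without OA-NO2 replicate 3). That gene was Tm7sf2, a sterol reductase, at 17.1, 20.2 and 26.9 CPM with OA and 35.1, 46.7 and 38.6 CPM with OA-NO2 (0.91 ± 0.20), called by DESeq2 and without OA replicate 3. Sqle, squalene epoxidase, was at -0.08 ± 0.53 (95% interval -1.21 to 1.05). Genes of LXR and sterol efflux had a median of -0.03, with 3 of 15 lower at an unadjusted p under 0.05, among them Abcg1, a cholesterol exporter (-0.76 ± 0.23), and Soat1, which esterifies cholesterol (-0.66 ± 0.20), called without OA replicate 3 (-0.85, edgeR adjusted p = 0.0475). Of 19 bile acid genes tested 1 was higher and 1 lower (median 0.04, below 0 without OA replicate 1 or OA-NO2 replicate 3). The higher one was Cyp8b1, the 12-alpha-hydroxylase that sets the share of cholic acid, at 65.3, 150 and 226 CPM with OA and 450, 339 and 635 CPM with OA-NO2. All OA-NO2 libraries of Cyp8b1 were above OA replicate 3, the highest of its group (1.69 ± 0.38, edgeR adjusted p = 0.313), and DESeq2 (0.00376) and edgeR without OA replicate 3 (0.0283) called it. Cyp7a1, which sets the rate of bile acid synthesis, overlapped between groups (-0.09 ± 0.30, 95% interval -0.73 to 0.56).

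Among hepatocyte genes the 20 identity genes had a median of 0.20 (0.04 without OA replicate 1, 0.06 without OA-NO2 replicate 3 and 0.42 without OA replicate 3) and 0 at an unadjusted p under 0.05, with Alb at 0.30 ± 0.28 (95% interval -0.31 to 0.90) on the log2 scale. Growth hormone and sex-biased genes had a median of 0.52 over 21 tested (0.27 without OA-NO2 replicate 2 and 0.87 without OA replicate 3), with 4 higher and 1 lower at an unadjusted p under 0.05. Susd4, a complement regulator of this list, stood at 3.31, 4.46 and 14.3 CPM with OA and 22.1, 25.5 and 27.6 CPM with OA-NO2 (1.78 ± 0.40, edgeR adjusted p = 0.313, and 0.000612 without OA replicate 3; DESeq2 0.00864). Susd4 showed OA replicate 3 between its group and the OA-NO2 group. Of 32 cytochrome P450 and conjugation genes 2 were higher and 3 lower (median 0.25, from 0.07 without OA replicate 1 to 0.54 without OA replicate 3, with 0.11 without OA replicate 2 and 0.13 without OA-NO2 replicate 2), with Cyp2d9 at 0.83 ± 0.34 and Cyp2a4 at -2.07 ± 0.69, both of families with close copies. Cyp2d9 was called without OA replicate 3 (1.5, edgeR adjusted p = 0.0243). The medians were 0.39 for urea cycle and amino acid enzymes (0.21 without OA replicate 1 and 0.26 without OA-NO2 replicate 2), where Asl, argininosuccinate lyase, was at 0.80 ± 0.30, and 0.21 for nuclear genes of oxidative phosphorylation (0.11 without OA-NO2 replicate 2 and 0.34 without OA-NO2 replicate 1), where Ndufs3, a complex I subunit, was at 0.53 ± 0.17.

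The Mup family, the major urinary proteins that male mouse liver secretes, showed most plainly where OA replicate 3 lay. Mup7 stood at 13.9, 12.6 and 1101 CPM with OA and at 713, 1250 and 1129 CPM with OA-NO2. OA replicate 3 was inside the OA-NO2 range, and the other OA libraries were near the 7.46 to 23.8 CPM of vehicle. The log2 fold change of Mup7 was 1.46 ± 1.16 with all libraries (edgeR adjusted p = 0.613) and 6.30 without OA replicate 3 (adjusted p = 0.000612). Of 20 members tested 0 were called with all libraries, and 15 had values above 0 and 5 below. The 5 were Mup10, Mup18, Mup19, Mup20 and Mup22, each also below 0 without OA replicate 3. Among them the abundant Mup20 stood at a mean of 2153 CPM with OA and 1623 CPM with OA-NO2 (-0.41 ± 0.35, and -0.71 without OA replicate 3). Without OA replicate 3, 11 were called, all higher, where 0.296% of all genes were called higher. The family median then moved from 1.10 to 2.43 (0.63 without OA replicate 2). In the 11 called members OA replicate 3 lay toward OA-NO2, so leaving it out widens their gap, and that count is no separate support. The members are near-identical copies, so reads may be divided among them, and values of single members are uncertain. Summed over 22 members the family took 5792 ± 1734 CPM with OA and 8472 ± 1766 CPM with OA-NO2 (SD, n = 3 each, two-sided exact permutation p = 0.2).

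Without OA replicate 3, edgeR's quasi-likelihood test called 130 of 14853 genes (0.875%), 44 higher (0.296%) and 86 lower (0.579%) with OA-NO2, at an adjusted p under 0.05. At an unadjusted p under 0.05 there were then 2662 (17.9%), 1227 higher (8.26%) and 1435 lower (9.66%). OA replicate 3 was nearer to the OA-NO2 mean than to the mean of OA replicates 1 and 2 in 119 of these genes, and inside or past the OA-NO2 range in 61. Its median position was 0.814 on a log2 scale where 0 is the mean of the other OA libraries and 1 that of OA-NO2 (quartiles 0.681 and 0.980). These 130 genes were selected without that library, so their number describes how far it weighs on the comparison. The 11 genes for which OA replicate 3 was nearer to its own group were Cd163, Nlrp12, Cidea, Tm7sf2, Chn1os3 and the predicted Gm9780, all higher with OA-NO2, and Steap4, Ntrk2, Cd207, Ptpn7 and Gzmk, all lower. Each of them except Gm9780, which was not tested, had the same direction with all 6 libraries at an unadjusted edgeR p of at most 0.000547. The 11 genes were selected on the remaining libraries and on where OA replicate 3 lay, so that result follows from the selection and is no separate support.

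Of these, Steap4, a metalloreductase that inflammation induces, stood at 444, 337 and 234 CPM with OA and 137, 120 and 149 CPM with OA-NO2. The log2 fold change was -1.32 ± 0.23 (edgeR adjusted p = 0.243, and 0.0103 without OA replicate 3, DESeq2 0.000133). Chow stood at 116 to 132 CPM and vehicle at 138, 183 and 235 CPM, which overlapped the OA-NO2 values. The diet itself was not called for Steap4 (vehicle over chow 0.60, edgeR adjusted p = 0.083), and OA replicates 1 and 2 were above every vehicle library. Ntrk2, the receptor of brain-derived neurotrophic factor, stood at 20.6, 20.3 and 22.0 CPM with OA and 8.44, 8.91 and 12.0 CPM with OA-NO2. The OA libraries were nearly equal, and all were above the OA-NO2 libraries (-1.10 ± 0.19, 95% interval -1.51 to -0.70, edgeR adjusted p = 0.243, and 0.0382 without OA replicate 3; DESeq2 0.000707). Chn1os3, a transcript opposite the gene Chn1, stood at 0.459 to 0.903 CPM with OA and 1.39 to 2.80 CPM with OA-NO2 (1.73 ± 0.38; called by DESeq2 at 0.0395 and without OA replicate 3 at 0.0421); the sources used here do not say whether counting used strand, so reads of the 2 genes may not be told apart. Lrtm2, a leucine-rich repeat membrane protein, was among the 119 genes for which OA replicate 3 was nearer to OA-NO2. It stood at 1.48, 3.59 and 0.783 CPM with OA and 0.309, 0.259 and 0.0604 CPM with OA-NO2 (-3.15 ± 0.65, edgeR adjusted p = 0.313, and 0.026 without OA replicate 3; DESeq2 0.00864). Its counts were low in all 6 libraries, but the groups did not overlap.

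**Figure D3:**
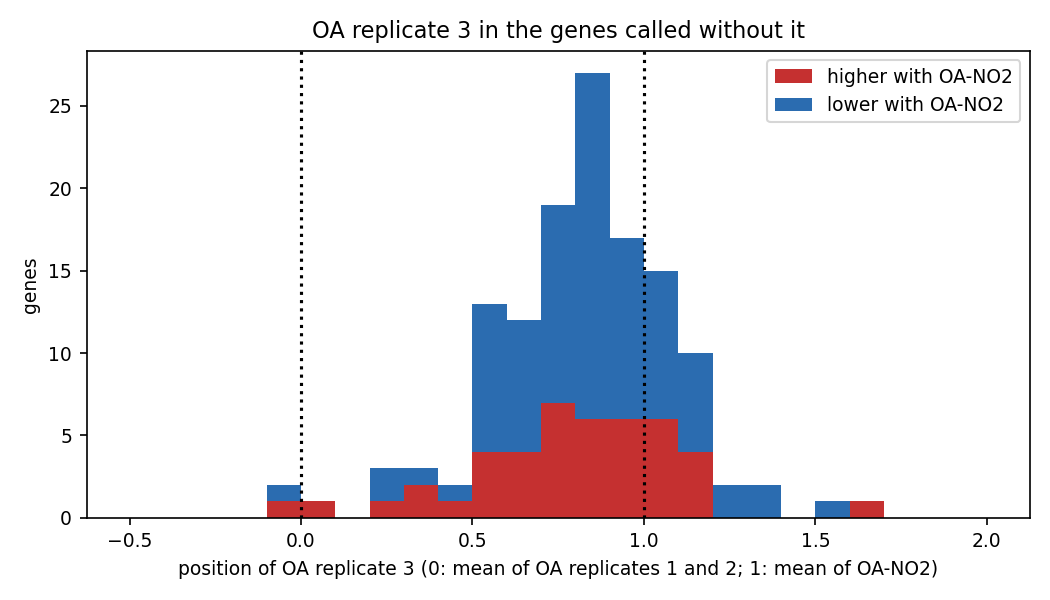
Position of OA replicate 3 in each of the 130 genes called without it, on a scale where 0 is the mean log2 CPM of OA replicates 1 and 2 and 1 that of the OA-NO2 libraries; bars count genes, stacked by direction. The median position is 0.814, and 119 genes lie nearer to 1 than to 0.

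Genes that the diet moves were then followed in the OA-NO2 and OA libraries. They were taken from the vehicle and chow libraries at an adjusted p under 0.05 and a log2 fold change beyond 1. Counts of those libraries do not enter the OA and OA-NO2 group means, but all groups shared 1 fit and its estimate of spread. Genes chosen at a low adjusted p may have a low shared spread, which would raise their share at an unadjusted p under 0.05. How far it did so was not tested. Of 1161 genes raised by the diet (8.02% of genes tested), 1085 had values below 0 for OA-NO2 over OA, 419 were lower and 4 higher at an unadjusted p under 0.05 (36.4%, against 12.0% of all genes), and 0 were called. Their median log2 fold change was -0.67, against -0.00219 for all genes. Of 382 genes lowered by the diet (2.64%), 330 had values above 0, 93 were higher and 3 lower (25.1%), and 1, Cd163, was called. Their median was 0.43.

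These shifts leaned on single libraries in size but not in direction. Without OA replicate 3 the medians were -0.90 and 0.70, and over 15 alternative settings they ran from -0.90 to -0.46 for the raised genes, the smallest in size without OA replicate 1, and from 0.29 to 0.70 for the lowered ones. The level of each library, as the median log2 CPM of the raised genes against the mean of the 6 libraries, was 0.68, 0.53 and -0.30 in the OA libraries and 0.00, -0.50 and -0.33 in the OA-NO2 libraries. For the lowered genes it was -0.52, -0.38 and 0.29 in the OA libraries, against 0.09, 0.38 and 0.29 in the OA-NO2 libraries. OA replicates 1 and 2 were the most diet-like of the 6 livers on both lists, whereas OA replicate 3 lay beyond OA-NO2 replicate 1 on both.

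**Figure D4:**
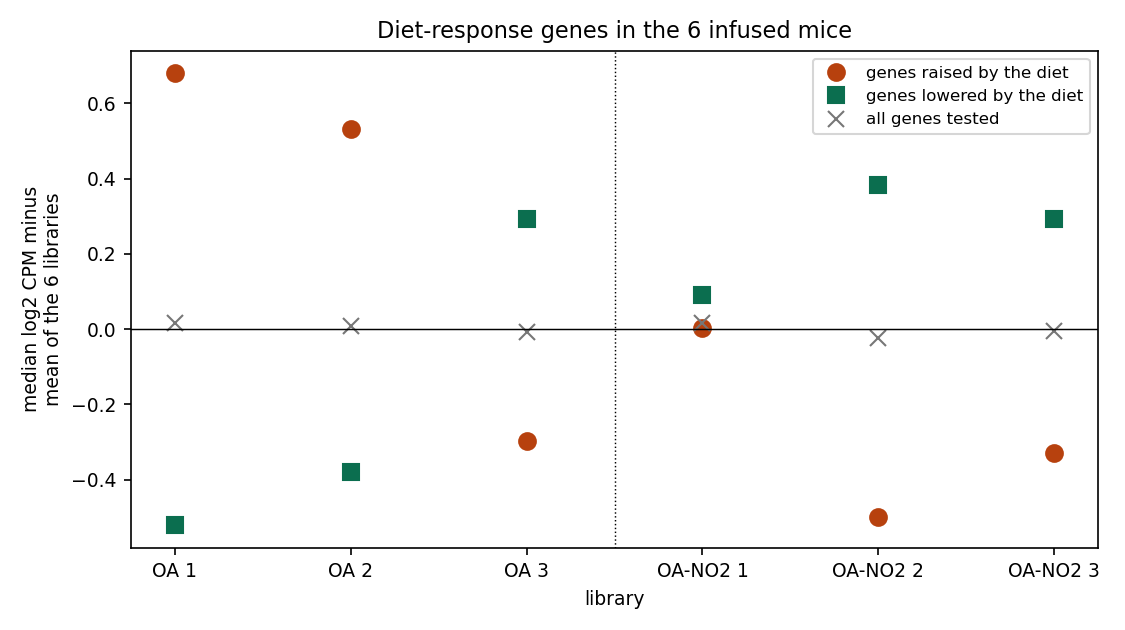
Median log2 CPM, relative to the mean of the 6 libraries, of the 1161 genes raised by the diet (circles), the 382 lowered by it (squares) and all genes tested (crosses) in each infused mouse. OA replicates 1 and 2 are at 0.68 and 0.53 for the raised genes, OA replicate 3 at -0.30 and the OA-NO2 libraries at 0.00, -0.50 and -0.33.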

How the data were processed

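Liver RNA of 12 mice was sequenced, 1 library per mouse. Per the labels' protocols, RNA was extracted with Trizol, the KAPA mRNA HyperPrep kit gave the libraries, which were sequenced as paired reads of 76 bases, and Trimmomatic 0.35 trimmed the reads. The build GRCm38 and the tools HTSeq, SAMtools 1.2 and HISAT2 2.1.0 are named per the submitters' processing notes. The sources used here do not give the annotation release, the use of strand or the handling of multi-mapping reads. The authors deposited raw whole-number counts for 24983 genes. Symbols were found for 24914, and the other 69 held 0.0143% of counts.

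All 12 libraries entered 1 edgeR 4.0.16 quasi-likelihood fit (R 4.3.3) with a coefficient per group, TMM scaling and the default filter (minimum count 10, minimum total 15), which kept 14469 genes. Adjustment was by Benjamini-Hochberg over these. SE is the log2 fold change over the square root of F, and 95% intervals use it. CPM used TMM-scaled totals. The biological coefficient of variation was 0.226. No 2 libraries within the OA or the OA-NO2 group agreed within sampling noise (lowest chi-square per degree of freedom 26.8). Scripts were tested on simulated data. Alternatives were DESeq2 1.42.0, limma-voom (limma 3.58.1), other scalings and filters, the 6 libraries alone and leaving out each library. Coordinates are those of GENCODE M21, 1-based.

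The 41 gene lists (726 genes, 721 in the table, 3 matched through an older symbol) and the rule for named genes were chosen with earlier results of these data known. The rule took called genes (filled up to 6 per direction by lowest p, at least 1 CPM in the higher group, with predicted genes and the Mup family passed over) and 38 genes given whatever their result, of which Hspa1a and Tnf were not tested. Of the genes it took, 2 are not reported here. A further 62 genes, mostly the members with the lowest p of each list, were chosen after their values were seen.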

Additional observations from a re-analysis of the deposited data

How the results depend on the processing

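Cd163 was called under all 15 alternative settings. The number of genes called was 51 with DESeq2 (27 higher, 24 lower; 576 of 14469 adjusted p not given by it), 10 without a filter on low counts (6 higher, 4 lower) and 1 with each other scaling, filter, tool or threshold. Leaving out 1 library gave 1 to 130 genes called, 1 to 44 higher and 0 to 86 lower. The count of 130 came without OA replicate 3, and 2 genes, both higher, were called without OA-NO2 replicate 2. With the 6 infused libraries alone and OA replicate 3 left out, a setting chosen after seeing the data, it was 131 (47 higher, 84 lower). Genes at an unadjusted p under 0.05 numbered 1740 with all libraries. Without OA replicates 1, 2 and 3 in turn they numbered 812, 1036 and 2662. Without OA-NO2 replicates 1, 2 and 3 in turn they numbered 2318, 1008 and 2009. Library size alone moved the median of all genes to -0.109, and with it 369 genes were higher and 1373 lower at an unadjusted p under 0.05.

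Of the 44 genes named by the rule and reported 35 kept their sign throughout. The others were near 0 and turned: with library size alone Srxn1 was at -0.0676 and Scd1 at -0.0447, and on leaving out 1 library the log2 fold change ran from -0.0762 to 0.25 for Gclc, -0.0927 to 0.232 for Srxn1, -0.462 to 0.0485 for Cd36, -0.515 to 0.673 for Fabp4, -0.261 to 0.0418 for Cidec, -0.0775 to 0.141 for Scd1, -0.586 to 0.673 for Fgf21, -0.301 to 0.094 for Cyp7a1 and -0.182 to 0.0672 for Sqle. Of the 62 others Vsig4 turned, at -0.133 with library size alone and from -0.387 to 0.506 on leaving out 1 library. The difference in mitochondrial share, -0.347 percentage points, became 0.324 on TMM-scaled totals and ran from -1.42 to 0.256 on leaving out 1 library. The cause of these turns was not tested.

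No paired analysis was possible because the replicate numbers only follow accession order, and the ear tags pair no mice across groups. With 3 mice per group, a gene needed a large and even difference to pass over 14469 tests; genes that missed the threshold are not shown to be alike under OA and OA-NO2.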

Other observations

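Clock genes were outside the groups described above. Of 17 tested, 2 were higher and 2 lower with OA-NO2 at an unadjusted p under 0.05, and 0 were called. Arntl, which encodes the activator BMAL1, stood at 1.22, 2.00 and 1.75 CPM with OA and at 4.74, 4.196 and 5.92 CPM with OA-NO2 (log2 fold change 1.57 ± 0.55, edgeR adjusted p = 0.348). Dbp, a clock-driven transcription factor whose peak is known to lie opposite that of Arntl, stood at 45.4, 51.9 and 42.9 CPM with OA and 36.3, 24.4 and 20.1 CPM with OA-NO2 (-0.79 ± 0.36). Nr1d2, the repressor REV-ERB-beta, stood at 134, 111 and 136 against 82.8, 85.3 and 92.8 CPM (-0.54 ± 0.20). In Arntl, Dbp and Nr1d2 the groups did not overlap, and OA replicate 3 lay with its own group. These were the only such genes of the 17, 1 higher and 2 lower, where 14.3% of all genes did not overlap. They were chosen after their values were seen, and a count near that share is no sign of a clock difference. Nfil3, a repressor of the same output genes as Dbp, was at 0.72 ± 0.27 with overlap. The hour of tissue collection is not given in the sources used here, and its part in these values was not tested.

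Genes of the unfolded protein response stood lower while cytosolic heat shock genes stood higher. Of 18 tested, 5 were lower and 0 higher at an unadjusted p under 0.05 (median log2 fold change -0.28, or -0.12 without OA-NO2 replicate 2). Xbp1, a transcription factor of this response, stood at 168, 187 and 160 CPM with OA and at 132, 119 and 109 CPM with OA-NO2, without overlap (-0.52 ± 0.22). Hspa5, the main chaperone of the endoplasmic reticulum, was at -0.43 ± 0.19, and Manf, a secreted chaperone-like factor, at -0.67 ± 0.23.

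Against the general shift of diet genes, 4 genes raised by the diet stood still higher with OA-NO2 than with OA at an unadjusted p under 0.05 (Cidea, Adam11, B430212C06Rik and Gm26917), and 3 genes lowered by the diet stood still lower (Adgrf1, Gm10052 and Gm32511). They were chosen after their values were seen. B430212C06Rik lies on the strand opposite Cidea, overlaps its start and stood at 1.02 ± 0.35, so the 2 are not separate observations. Adam11, a membrane protein of the ADAM family, stood at 27.7, 36.9 and 30.8 CPM with OA and 61.4, 44.9 and 36.5 CPM with OA-NO2 (0.58 ± 0.25), which overlapped.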
